A study of Mus musculus with 12 samples.

Results

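The genes described here make up the protein-folding machinery of the endoplasmic reticulum (ER) and the unfolded protein response. They were chosen by gene symbol: 36 chaperones, folding enzymes, stress sensors, degradation factors and translocation components, out of 16942 genes measured by RNA-seq of mouse small intestine. The choice was made with earlier results of these data known. All 36 were found, and all 36 were among the 12329 genes with enough counts to be tested. The lowest of them, Derl3, had at least 6 counts in every library.

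The mice were of the outbred ICR strain, and 12 libraries fell into 4 groups of 3. AOS0 received no busulfan and had the AOS label 0. AOS10 received no busulfan and had the AOS label 10. B+A0 received busulfan with the AOS label 0, and B+A10 received busulfan with the AOS label 10. Busulfan, a chemotherapy agent, alkylates DNA and is used to empty the bone marrow of stem cells. The labels expand neither AOS nor the unit of its dose, nor the W5 with which all 12 sample titles begin. They give no age, sex, busulfan dose or sampling time, and whether each library stands for its own animal or a pool is not stated, so the p-values reflect the spread of these samples alone, which may be technical.

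The ER of intestinal cells folds secreted and membrane proteins such as digestive enzymes, mucins and antimicrobial peptides. Hsp70-type and lectin chaperones hold new chains while protein disulfide isomerases form their disulfide bonds, and chains that fail to fold are sent back to the cytosol for degradation. When unfolded chains build up, the sensors IRE1 (encoded by Ern1), PERK (Eif2ak3) and ATF6 raise the transcription of chaperone and degradation genes, in part through XBP1. Secretory cells of the gut, Paneth and goblet cells above all, are known to depend on this response.

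Libraries held 13560232 to 16818245 counts each. All 10 epithelial markers were present in every library, whereas the 6 smooth muscle markers in the table summed to between 0.0614 and 3.73 CPM, so the libraries carried little sign of the muscle wall. Replicates of a group differed by more than counting noise. CPM, the level used throughout, are counts scaled to a common library size by edgeR's TMM method. Gene tests used edgeR's quasi-likelihood model over all 12 libraries, and "rose", "fell" or "called" refer to an adjusted p under 0.05 over all 12329 genes. In bulk tissue, fewer cells of a type and less RNA per cell cannot be told apart.

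ER chaperone genes are known for a promoter motif, the ER stress response element (ERSE), that ATF6 binds together with the CCAAT factor NF-Y. RefSeq promoter windows (GRCm38.p6, from 250 bases before to 50 bases after the start) were matched by gene ID for 30 of the 36 genes. No entry was matched for Atf6, Derl1, Hspa13, Hyou1, Manf and Sec61a1. The exact ERSE letters, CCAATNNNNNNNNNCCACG on either strand, stood in 9 of the 30 windows (30%), against 18 of the 9897 windows of all tested genes with an entry (0.182%). The sites below are all exact ERSE matches among the members, shown so that genes that rose can be read beside genes with the same letters that passed no test. Each runs 5′ to 3′ along the gene's own strand, with the motif in capitals. A motif on the opposite strand reads CGTGG first.

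Hspa5, chr2:34772020-34772048, plus strand: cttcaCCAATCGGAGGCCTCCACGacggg

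Creld2, chr15:88819515-88819543, plus strand: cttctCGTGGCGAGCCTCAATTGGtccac

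Calr, chr8:84847070-84847098, minus strand: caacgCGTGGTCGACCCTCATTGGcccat

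Syvn1, chr19:6046527-6046555, plus strand: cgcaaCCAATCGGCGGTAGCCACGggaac

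Canx, chr11:50325795-50325823, minus strand: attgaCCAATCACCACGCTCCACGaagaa

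Pdia6, chr12:17266486-17266514, plus strand: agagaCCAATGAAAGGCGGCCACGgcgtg

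Dnajc3, chr14:118937822-118937850, plus strand: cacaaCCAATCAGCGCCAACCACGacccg

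Derl3, chr10:75893237-75893265, plus strand: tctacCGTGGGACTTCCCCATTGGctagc

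Hsp90b1, distal site, chr10:86705633-86705661, minus strand: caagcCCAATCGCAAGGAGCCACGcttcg

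Hsp90b1, proximal site, chr10:86705528-86705556, minus strand: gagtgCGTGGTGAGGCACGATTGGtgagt

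The motif began between 44 bases (Syvn1) and 212 bases (the distal Hsp90b1 site) before the start of the gene. A second form, ERSE-II (ATTGGNCCACG), stood in a window of 2 of the 30 genes, Herpud1 and Dnajb11 (6.67%), against 9 of 9897 (0.0909%). Herpud1 is shown because it had the second largest difference after busulfan.

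Herpud1, chr8:94386372-94386392, plus strand: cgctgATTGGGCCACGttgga

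The core of the XBP1 element, TGACGTGG, stood in a window of 1 of the 30 genes, Txndc5 (3.33%), against 102 of 9897 (1.03%). That window, chr13:38527865-38528164, lies inside the gene (38500266 to 38528824, minus strand) and not at its outermost start. These are letter matches in a fixed window and not measured binding sites. With 1 mismatch allowed, ERSE stood in a window of 15 of 30 genes (50%, against 2.44% of all), ERSE-II in 8 (26.7%, against 2.11%) and the XBP1 core in 11 (36.7%, against 21.9%).

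Busulfan without AOS (B+A0 against AOS0) was the comparison in which these genes differed most. Chaperones of the Hsp70 system, their cofactors and a group of degradation genes rose in the busulfan libraries, the largest by about the fold of Creld2, 2.14. Of the 36 genes, 16 rose and none fell, against 1.70% of all tested genes called higher and 1.94% called lower. Since the genes were chosen with earlier results of these data known, shares of all genes describe the list and do not test it. The median log2 fold change was 0.35, against -0.0072 over all tested genes, and 35 of 36 values were above 0. In 29 of the 36 genes (80.6%) all 3 B+A0 libraries lay above all 3 AOS0 libraries, and in none did they lie below, against 14.4% and 14.6% of all genes. The count of 16 dropped to 6 when AOS0 replicate 1 was left out, to 8 without replicate 3 of B+A0 and to 10 without replicate 3 of AOS0. Calls dropped outside the list too. Of other genes of the same pathways, 19 rose in the edgeR fit of all libraries and 1, 1 and 2 under these settings in turn. The shares of all genes called under these settings are not given here.

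**Figure D1:**
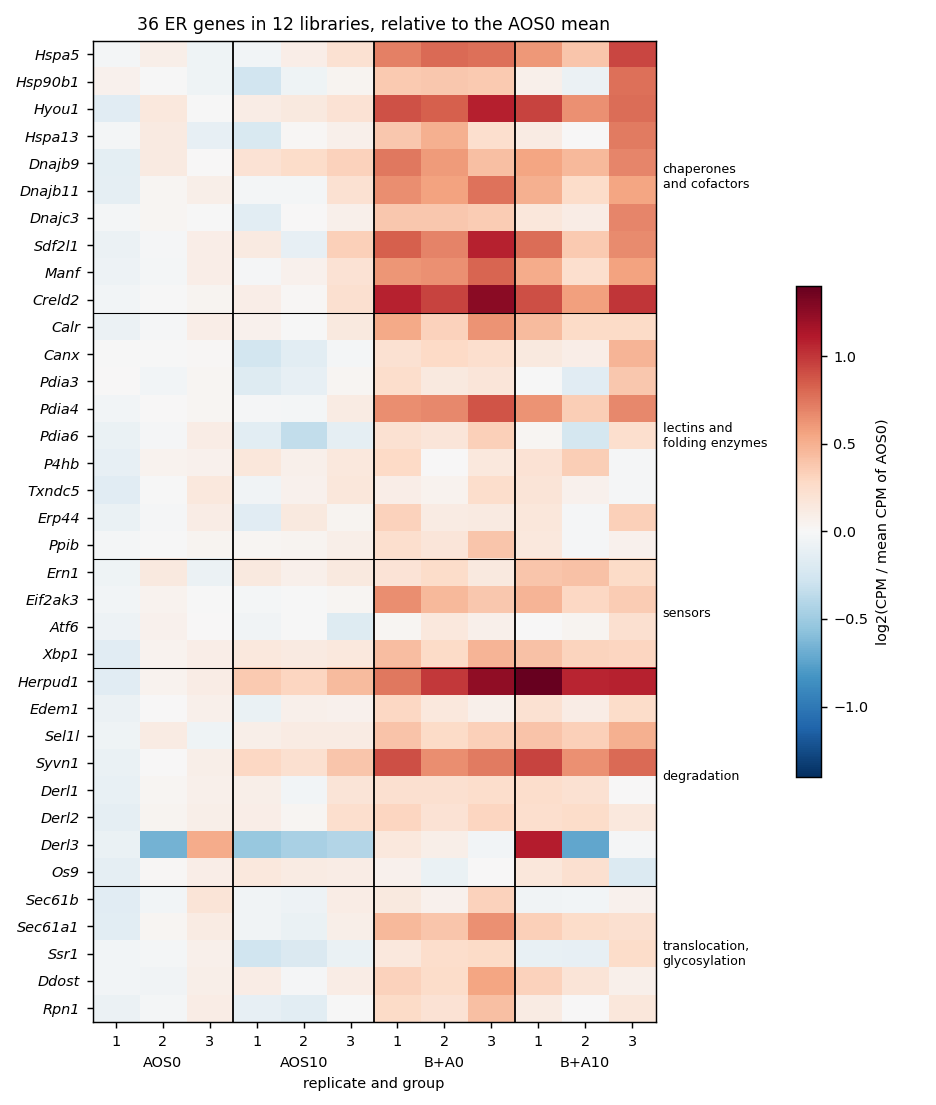
Each row is 1 of the 36 ER genes and each column 1 of the 12 libraries; colour is log2 of the CPM over the mean CPM of AOS0 (red higher, blue lower), with rows grouped by role. The rows of Creld2, Hyou1 and Herpud1 are red in all 6 busulfan libraries, while the Derl3 row varies between replicates.

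Among the 10 Hsp70, Hsp90 and Hsp110 chaperones and cofactors, 7 rose, with a median log2 fold change of 0.68. All 10 had B+A0 libraries above the AOS0 libraries. The 7 that rose became 3 when AOS0 replicate 1 was left out and 4 when replicate 3 of B+A0 was. Creld2, an ER-resident isomerase-like protein of the stress response (gene ID 76737, GRCm38 chromosome 15, 88819646 to 88826681), measured 47.5, 48.6 and 50.3 CPM in AOS0. It measured 103.0, 93.8 and 116.7 CPM in B+A0, so the lowest busulfan library stood well above the highest control (log2 fold change 1.10, SE 0.113, adjusted p = 0.00183, edgeR). AOS10 measured 52.0, 49.3 and 56.9 CPM, close to AOS0, and B+A10 measured 91.4, 72.8 and 97.5 CPM, all above both groups without busulfan.

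Hyou1, the large Hsp110-type partner that exchanges nucleotide on the main ER Hsp70 (gene ID 12282, chromosome 9, 44379490 to 44392369), measured 215.4, 265.0 and 239.4 CPM in AOS0 and 446.4, 427.0 and 511.2 CPM in B+A0. The groups were far apart (log2 fold change 0.94, SE 0.105, adjusted p = 0.00281, edgeR). Its AOS10 levels were 258.1, 262.9 and 275.6 CPM and its B+A10 levels 463.3, 372.7 and 411.2 CPM. Hspa5, the Hsp70 of the ER known as BiP (gene ID 14828, chromosome 2, 34772090 to 34776529), stood at 648.2, 695.8 and 632.9 CPM in AOS0 and 1078, 1140 and 1121 CPM in B+A0. The busulfan replicates were tight and did not overlap the controls (log2 fold change 0.76, SE 0.118, adjusted p = 0.0112, edgeR). In B+A10 the spread was wider, at 1006, 862.6 and 1256 CPM, against 643.3, 705.0 and 765.0 CPM in AOS10. Leaving out replicate 1 or 3 of AOS0, or replicate 3 of B+A0, ended the Hspa5 call.

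The J-domain and smaller cofactors moved with them. Sdf2l1, a cofactor bound to Dnajb11, measured 38.5, 40.1 and 43.3 CPM in AOS0 and 72.8, 66.0 and 85.9 CPM in B+A0 (log2 fold change 0.88, adjusted p = 0.0106, edgeR). Manf, a small secreted stress protein, measured 161.6, 166.4 and 180.2 CPM against 260.4, 264.7 and 299.0 CPM (0.70, adjusted p = 0.00744). Dnajb11, the J-domain partner of BiP, measured 134.7, 149.6 and 155.5 CPM against 229.6, 216.7 and 248.8 CPM (0.66, adjusted p = 0.0112). In each of these 3 genes the lowest B+A0 library exceeded the highest AOS0 library by a wide margin. Dnajb9, a J-domain protein that restrains IRE1, measured 39.2, 46.9 and 43.1 CPM in AOS0 and 71.8, 65.1 and 57.8 CPM in B+A0 (0.59, adjusted p = 0.0129).

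The other 3 genes of this role passed no test, although their groups did not overlap. Hsp90b1, the ER Hsp90, measured 617.1, 588.9 and 565.0 CPM in AOS0 and 763.6, 769.4 and 763.3 CPM in B+A0 (log2 fold change 0.37, SE 0.171, adjusted p = 0.221, edgeR). The B+A0 replicates were tight, while B+A10, which shares the estimate of spread, ranged from 559.5 to 1009 CPM. Hspa13, an atypical Hsp70, and Dnajc3, a J-domain inhibitor of PERK, both had 0.37 on the log2 scale (adjusted p = 0.209 and 0.116). Without B+A10 replicate 3 these 3 passed with all others, so that 10 of the 10 were called.

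**Figure D2:**
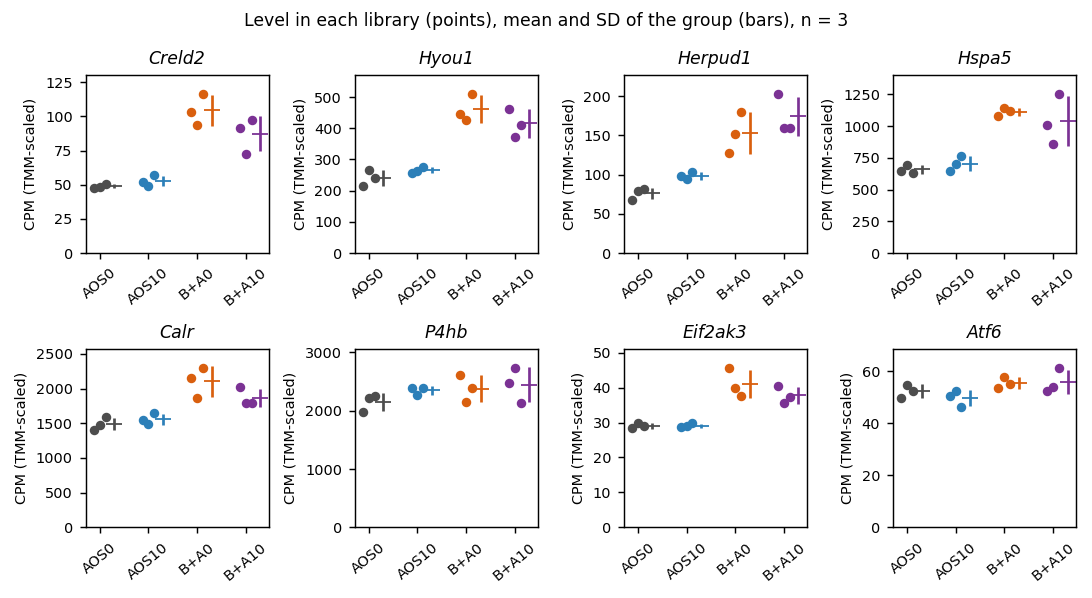
CPM in each library (points) with the mean and SD of each group (bars, n = 3) for 8 genes, axes starting at 0. Creld2, Hyou1, Herpud1, Hspa5, Calr and Eif2ak3 lie higher in all B+A0 libraries than in AOS0, whereas P4hb and Atf6 overlap.

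Of 9 lectin chaperones and folding enzymes, 2 rose (median log2 fold change 0.24, 7 with groups that did not overlap). Calr, the soluble lectin chaperone calreticulin, rose from 1406, 1474 and 1589 CPM in AOS0 to 2146, 1865 and 2298 CPM in B+A0 (log2 fold change 0.50, SE 0.0932, adjusted p = 0.0202, edgeR). Pdia4, a disulfide isomerase found with BiP, rose from 164.1, 170.4 and 172.9 to 265.0, 268.7 and 311.3 CPM (0.74, SE 0.0988, adjusted p = 0.00551). When AOS0 replicate 1 or B+A0 replicate 3 was left out, Calr did not pass and Pdia4 was the 1 gene called. P4hb, the most abundant disulfide isomerase, measured 1978, 2223 and 2245 CPM in AOS0 and 2607, 2152 and 2381 CPM in B+A0, and the groups overlapped (0.15, adjusted p = 0.435). The remaining members stood between 0.13 and 0.27 on the log2 scale without passing: Ppib, a prolyl isomerase, at 0.27 (adjusted p = 0.0677), Canx, the membrane-bound lectin calnexin, at 0.24, Pdia6 at 0.24, Erp44, which retains clients in the ER, at 0.19, Pdia3, the isomerase partner of both lectins, at 0.18 and Txndc5 at 0.13.

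Of the 3 sensors and the transcription factor they feed, 2 of 4 rose. Eif2ak3 measured 28.3, 30.0 and 28.9 CPM in AOS0 and 45.6, 39.8 and 37.7 CPM in B+A0 (log2 fold change 0.50, SE 0.0891, adjusted p = 0.0173, edgeR). Xbp1 measured 182.1, 209.4 and 216.3 CPM against 272.5, 243.4 and 281.5 CPM (0.39, adjusted p = 0.0295). Gene-level counts do not separate the IRE1-spliced form of Xbp1, so these values say nothing of IRE1 activity. Ern1 measured 36.5, 41.7 and 35.9 CPM against 43.4, 45.5 and 41.9 CPM, just without overlap, and did not pass (0.20, adjusted p = 0.178). Atf6 overlapped between groups, at 49.8, 54.8 and 52.6 against 53.6, 57.9 and 55.1 CPM (0.08, adjusted p = 0.605). Neither Eif2ak3 nor Xbp1 passed when replicate 1 or 3 of AOS0 was left out, and Xbp1 also failed without replicate 2 of AOS0 or replicate 3 of B+A0.

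The 8 genes of ER-associated degradation divided, with 3 that rose and a median log2 fold change of 0.25. Herpud1, a membrane scaffold of the degradation complex (gene ID 64209, chromosome 8, 94386429 to 94395371), measured 68.1, 78.6 and 81.6 CPM in AOS0 and 127.4, 151.6 and 180.4 CPM in B+A0 (log2 fold change 1.01, SE 0.132, adjusted p = 0.00517, edgeR). Syvn1, the ubiquitin ligase HRD1 at the core of the complex, measured 90.5, 96.7 and 101.5 CPM against 179.6, 151.5 and 159.4 CPM (0.77, SE 0.0973, adjusted p = 0.00517). Sel1l, the adaptor that stabilises that ligase, was called with a smaller difference (0.33, adjusted p = 0.0375), at 140 to 158 CPM in AOS0 and 175 to 192 CPM in B+A0. The other 5 did not pass: the channel-like proteins Derl2 at 0.27 (adjusted p = 0.0793) and Derl1 at 0.23, the mannosidase-like Edem1 at 0.17, Derl3 at 0.08 and the lectin Os9 at -0.0089 (adjusted p = 0.971). Derl3, at 0.393 to 0.888 CPM in AOS0, was too shallow for a firm value (SE 0.462) and had the largest spread between replicates of all members (SD 0.541 on the log2 CPM scale), followed by Hsp90b1 (0.242) and Hspa13 (0.228).

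Translocation and N-glycosylation genes gave 2 calls among 5 (median log2 fold change 0.30). Sec61a1, the pore of the translocon, rose from 306.6, 346.0 and 367.7 CPM in AOS0 to 465.8, 446.2 and 529.9 CPM in B+A0 (log2 fold change 0.50, adjusted p = 0.0196, edgeR). Ddost, a subunit of the oligosaccharyltransferase, rose from 353 to 385 CPM in AOS0 to 436 to 534 CPM in B+A0 (0.38, adjusted p = 0.0457). Rpn1, another subunit of that enzyme, had 0.30 (adjusted p = 0.0677), Ssr1, of the translocon-associated complex, 0.22 and Sec61b, the small translocon subunit, 0.18. No gene of this role passed once replicate 1 of AOS0 or replicate 3 of B+A0 was left out, and Ddost passed only with all AOS0 and AOS10 libraries kept.

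Of the 16 genes that rose, 6 were called under all 19 alternative settings: Hyou1, Manf, Creld2, Pdia4, Herpud1 and Syvn1. Leaving out AOS0 replicate 1 ended the call for the other 10, namely Hspa5, Dnajb9, Dnajb11, Sdf2l1, Calr, Eif2ak3, Xbp1, Sel1l, Sec61a1 and Ddost (adjusted p = 0.0539 to 0.135, edgeR). Leaving out AOS0 replicate 3 ended it for Hspa5, Dnajb9, Eif2ak3, Xbp1, Sel1l and Ddost (0.0508 to 0.130). Without B+A0 replicate 3 it ended for Hspa5, Dnajb11, Sdf2l1, Calr, Xbp1, Sel1l, Sec61a1 and Ddost (0.0529 to 0.174). Sel1l and Ddost were also lost without any 1 AOS10 library (0.0574 to 0.0600) and without B+A0 replicate 2 (0.0687 and 0.0695). Xbp1 and Ddost were lost without AOS0 replicate 2 (0.0530 and 0.108). In a fit of only the groups compared Xbp1, Sel1l and Ddost were lost (0.0694 to 0.0774) and Hsp90b1 and Dnajc3 gained, and limma lost Sel1l (0.0568). Ppib was gained without B+A0 replicate 1, just under the threshold, and Hsp90b1, Hspa13, Dnajc3, Ppib and Rpn1 without B+A10 replicate 3 (0.0157 to 0.0492).

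Genes with the motif were found both among those that rose and among those that passed no test. Of the 9 members with an exact ERSE, 4 rose (Hspa5, Creld2, Calr and Syvn1), with a median log2 fold change of 0.38 in the B+A0 to AOS0 comparison. Of the 21 with a window and no exact ERSE, 9 rose, with a median of 0.27. Hsp90b1 carries 2 copies and Canx, Pdia6, Dnajc3 and Derl3 carry 1 each, and none of these 5 passed. Another 9 tested genes outside the list carry the same letters, and 1 of them rose: Alg12, a mannosyltransferase of N-glycan assembly (0.47, SE 0.0921, adjusted p = 0.0235, edgeR). The window of Alg12 overlaps that of Creld2, since the 2 genes face away from each other on chromosome 15, and the match is the same site.

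In proportion to all counts, the 36 genes together took 1.16% ± 0.0243 in AOS0, 1.16% ± 0.0484 in AOS10, 1.45% ± 0.0404 in B+A0 and 1.37% ± 0.0987 in B+A10 (SD, n = 3). The lowest busulfan library held 1.26% and the highest library without busulfan 1.22%, so the 6 and 6 did not overlap. The 4 genes with the largest parts made up 46.2% of the summed CPM difference between B+A0 and AOS0. Calr gave 18.6% of it, Hspa5 13.8%, P4hb 7.03% and Hyou1 6.73%. P4hb, the most abundant member per length, is among them although its difference did not pass.

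Levels can be compared between genes only per length, for which the deposited FPKM (fragments scaled by gene length and library size) were used. In AOS0, P4hb was highest at 909.2 ± 43.9 FPKM, followed by Calr at 837.3 ± 32.9, Pdia3 at 386.1 ± 9.74, Ppib at 347.1 ± 1.88 and Hspa5 at 278.7 ± 16.1 (SD, n = 3). P4hb and Calr stood apart from the rest. Hsp90b1, at 229.2 ± 15.6 FPKM, and Sec61b, at 226.5 ± 22.4, did not differ beyond their spread. At the lower end stood the sensors, Ern1 at 10.1 ± 0.876 FPKM, Atf6 at 7.35 ± 0.284 and Eif2ak3 at 7.22 ± 0.0777, with Hspa13 at 7.83 ± 0.722 among them and Derl3 lowest at 0.523 ± 0.206. Across the 36 genes, the FPKM level in AOS0 was unrelated in rank to the log2 fold change after busulfan (Spearman rho -0.0322, a description over genes that share the same libraries).

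**Figure D3:**
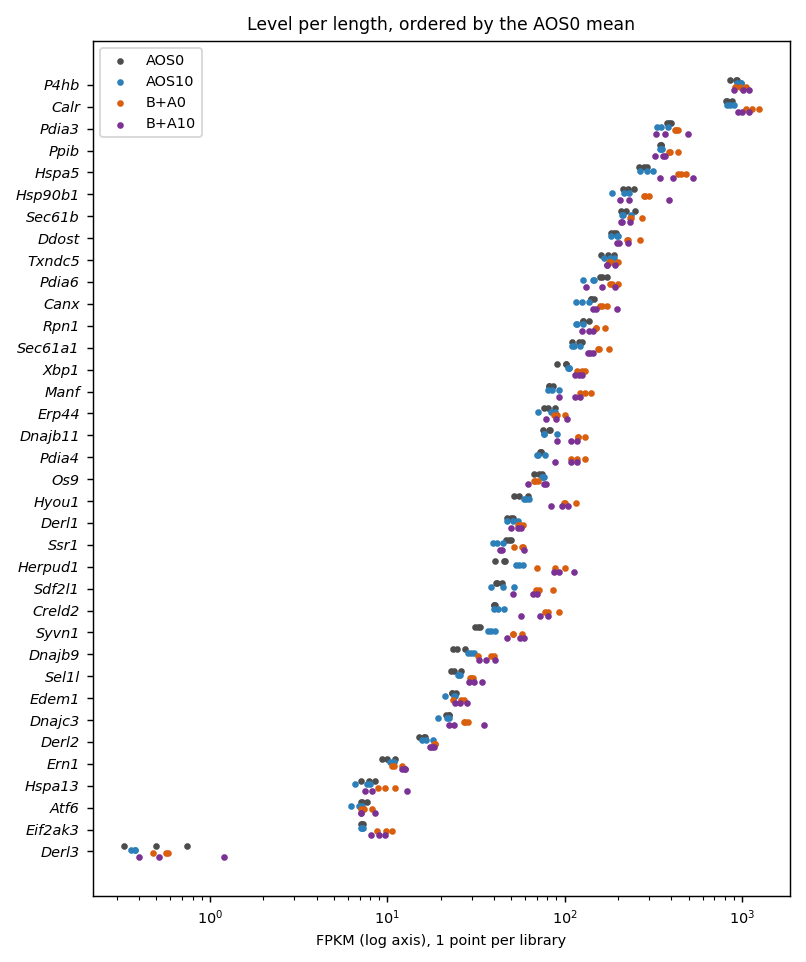
FPKM of the 36 genes in each library on a log axis, ordered by the AOS0 mean, with colour for the group. P4hb and Calr lie at the top and Derl3 lies far below all others.

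The second busulfan comparison, B+A10 against AOS10, compares none of the libraries of the first. Its test is still not independent of them, since both comparisons share 1 model and its estimate of spread. Here 3 genes rose, Hyou1, Creld2 and Herpud1, and none fell, against 0.146% of all tested genes called higher and 0.0162% called lower. Herpud1 went from 97.9, 93.9 and 103.2 CPM to 203.4, 159.5 and 160.0 CPM (log2 fold change 0.83, SE 0.131). Creld2 had 0.73 (SE 0.113) and Hyou1 0.65 (SE 0.104), and all 3 had an adjusted p of 0.0332 by edgeR. The median over the 36 genes was 0.27, against 0.0035 over all genes, and 34 were above 0. Groups did not overlap upwards in 21 genes (58.3%) and downwards in none, against 7.97% and 6.92% of all genes. By role, the median was 0.39 for the chaperones and cofactors, 0.24 for degradation, 0.22 for the sensors, 0.18 for translocation and glycosylation and 0.17 for the folding enzymes. The calls numbered 0 when replicate 2 of AOS0, any 1 AOS10 library, replicate 2 of B+A0 or replicate 1 of B+A10 was left out, and 6 without replicate 2 of B+A10. With all libraries kept they numbered 10 by DESeq2 and 0 by limma. They also numbered 0 in a fit of only the groups compared, which leaves out the libraries of the other groups. The shares of all genes called under these alternatives are not given here, so these counts do not set the members apart from other genes.

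Of the 16 genes that rose in B+A0, all 16 were above 0 in B+A10 against AOS10 and 15 had groups that did not overlap, Ddost being the exception. Their median log2 fold change was 0.68 in the first comparison and 0.38 in the second. All 16 were smaller in the second, which the choice of genes on the first favours. The difference of the 2 differences was tested as an interaction, and no gene passed in either direction (0% of all tested genes each way, with 844 genes at an unadjusted p under 0.05, against 17 called by DESeq2, none a member, and none by limma). Among the 36 genes, 3 had an unadjusted p under 0.05 and the smallest adjusted p was 0.692 (edgeR). The median interaction was -0.13 on the log2 scale, with 30 values below 0. Across the 36 genes the log2 fold changes of both comparisons had a Pearson r of 0.74 and a Spearman rho of 0.71, against an r of 0.26 across all genes, as a description over genes measured in the same libraries.

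**Figure D4:**
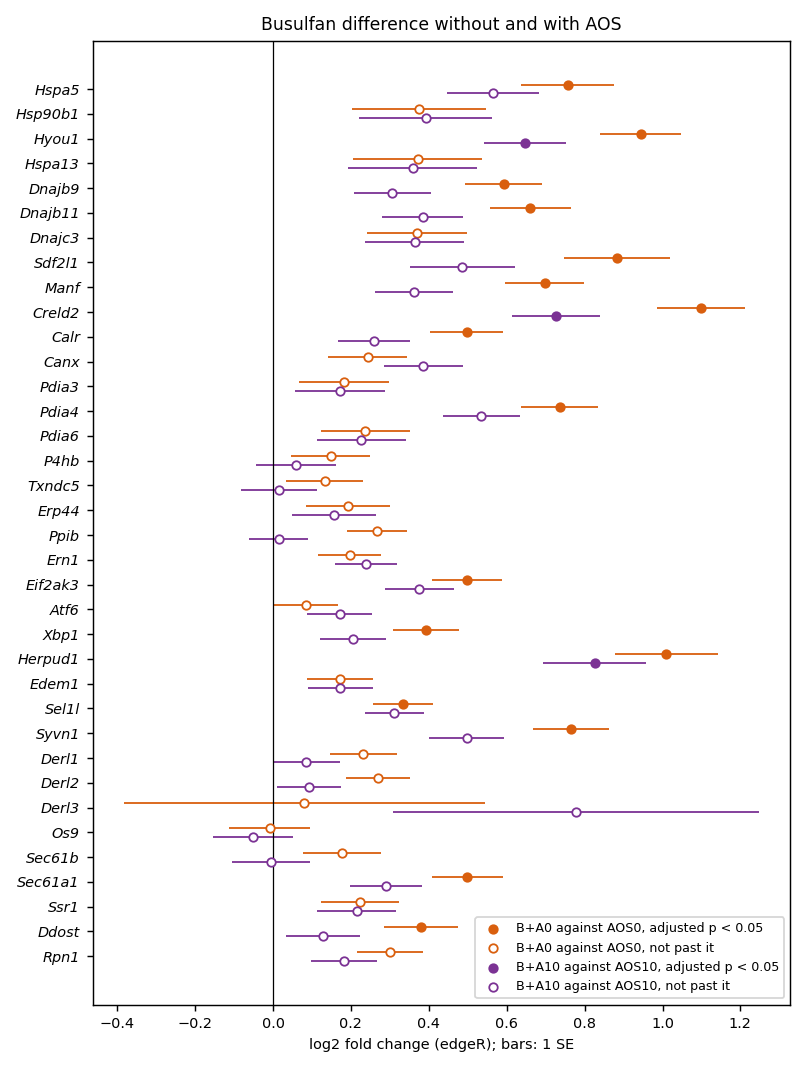
Log2 fold change ± SE of each of the 36 genes for B+A0 against AOS0 and for B+A10 against AOS10. Values lie above 0 in both comparisons for 34 genes, and filled points (adjusted p under 0.05) mark Creld2, Herpud1 and Hyou1 in both; Derl3 has the widest bars.

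Pooled by busulfan alone, 17 of the 36 genes had all 6 busulfan libraries above all 6 others, and none had them below, against 2.24% and 1.19% of all tested genes. They were Hspa5, Hyou1, Dnajb9, Dnajb11, Dnajc3, Sdf2l1, Manf and Creld2 among the chaperones and cofactors, Calr, Canx and Pdia4 among the lectins and folding enzymes, Eif2ak3, Xbp1, Herpud1, Sel1l, Syvn1 and Sec61a1. Of these, Dnajc3 and Canx were not among the 16 called in the first comparison. Dnajc3 measured 98.4 to 114.5 CPM in the 6 libraries without busulfan and 117.4 to 176.0 CPM in the 6 with it. Both treatments against neither (B+A10 against AOS0, which shares controls with the first comparison) gave 8 that rose, Hspa5, Hyou1, Dnajb9, Creld2, Pdia4, Herpud1, Sel1l and Syvn1, all among the 16. The background there was 0.754% higher and 0.203% lower, and groups did not overlap upwards in 9.25% and downwards in 8.60% of all genes, against 20 and 0 of the 36. The median was 0.31. The 8 became 4 when replicate 1 or 3 of AOS0 or replicate 1 of B+A10 was left out, or with only the groups compared, and 15 by DESeq2. For these alternatives too, the shares of all genes called are not given here. Herpud1 had the largest difference, 1.20 (SE 0.133, adjusted p = 0.00280, edgeR).

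AOS without busulfan (AOS10 against AOS0) moved none of these genes past the threshold, and no gene of the 12329 was called in either direction (0%, edgeR), with 768 genes at an unadjusted p under 0.05, 3 of them members. DESeq2 called 63 genes, none a member, and limma none. The median of the 36 was 0.058, and the smallest adjusted p was 0.607. Groups did not overlap upwards in 6 genes and downwards in 3, against 11.0% and 9.66% of all genes. Syvn1 had the smallest p of them, at 117.2, 112.6 and 126.1 CPM in AOS10 against 90.5 to 101.5 CPM in AOS0 (log2 fold change 0.30, adjusted p = 0.607). Herpud1 measured 93.9 to 103.2 CPM against 68.1 to 81.6 CPM (0.37, adjusted p = 0.659), and Dnajb9, Xbp1, P4hb and Os9 also had AOS10 above AOS0. Canx, Pdia6 and Ssr1 had AOS10 below AOS0, at -0.14, -0.20 and -0.19 on the log2 scale.

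AOS after busulfan (B+A10 against B+A0) likewise gave no call among the 36 or among all genes (0% in each direction, edgeR), with 1210 genes at an unadjusted p under 0.05. DESeq2 called 82 genes, none a member, and limma none. The median was -0.070, with 26 values below 0, 5 members at an unadjusted p under 0.05 and a smallest adjusted p of 0.418, that of Ppib. Groups lay lower in B+A10 without overlap for Dnajb11, Manf, Ppib, Sec61a1 and Rpn1 and higher for Ern1, against 5.43% and 4.81% of all genes. Manf, for example, measured 242.7, 199.7 and 250.9 CPM in B+A10 against 260.4 to 299.0 CPM in B+A0 (log2 fold change -0.25, SE 0.101, adjusted p = 0.457). B+A10 replicate 3 was far above the other B+A10 libraries in Hsp90b1 (1009 against 620.9 and 559.5 CPM), Hspa13, Dnajc3, Canx and Pdia3 (1232 against 944.4 and 853.1 CPM), and without it the median was -0.14.

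Other genes of the same pathways, from 8 lists that hold none of the 36 and were written with earlier results known, were read in B+A0 against AOS0. Of 158 such genes tested, 19 rose and 1 fell. DESeq2 called 36 higher, and a fit of only the groups compared 8. With 1 library left out, the number that rose was 1 when replicate 1 of AOS0 or replicate 3 of B+A0 was left out, 2 for replicate 3 and 9 for replicate 2 of AOS0, 7 for replicate 2 of B+A0, 11 for replicate 2 of AOS10 and 32 for replicate 3 of B+A10. Of the 20 genes called, Txndc11 passed under every alternative.

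In the calnexin cycle, which trims and checks N-glycans, 3 of 10 rose and none was below 0 (median log2 fold change 0.32). They were the cargo lectin Lman2 (0.45, adjusted p = 0.0146, edgeR), the folding sensor Uggt1 (0.40, 0.0228) and malectin, Mlec (0.37, 0.0235). Of 16 oxidative folding genes 3 rose (median 0.051): the thioredoxin-domain protein Txndc11 (0.49, adjusted p = 0.00794), the collagen prolyl hydroxylase subunit P4ha1 (1.53, 0.0129) and Pdia5 (0.41, 0.0291). Agr3 had the smallest p downwards (-0.62, adjusted p = 0.258), and its relative Agr2, an isomerase of mucin-secreting cells, had -0.21 (0.450). Of 20 further ER chaperones 1 rose, Serpinh1, the collagen chaperone (1.39, adjusted p = 0.0474, at 1.23 to 1.33 CPM in AOS0 and 2.70 to 3.94 in B+A0), and Ppic had the smallest p downwards (-0.87, 0.254).

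Among 24 other degradation genes 3 rose (median log2 fold change 0.085): the ubiquitin-conjugating enzyme Ube2g2 (0.72, adjusted p = 0.0232, edgeR), the p97 cofactor Nploc4 (0.35, 0.0324) and Edem2 (0.38, 0.0490). Fam8a1 had the smallest p downwards (-0.41, 0.138). Of 30 other translocon, signal peptidase and oligosaccharyltransferase genes 4 rose, and 28 were above 0 (median 0.11). Those with the smallest p were the signal recognition particle receptor subunits Srprb (0.47, adjusted p = 0.0166) and Srpr (0.29, 0.0406) and the translocon-associated Ssr2 (0.36, 0.0376), while Sec62 had -0.15 (0.593). Of 24 genes of vesicle coats and ER export 2 rose, the coat proteins Sec23b (0.46, adjusted p = 0.0106) and Sec24c (0.32, 0.0327), and Sar1b had -0.22 (0.255).

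Other sensors and activators split, with 1 of 15 that rose, the ATF6 relative Atf6b (0.39, adjusted p = 0.0418, edgeR), and 1 that fell, Crebrf, a regulator that promotes loss of a CREB3-family factor (-0.82, adjusted p = 0.0376). Ern2, the IRE1 form of mucus-secreting epithelium, had -0.23 (0.348). Of 19 genes downstream of PERK and ATF4, 2 rose (median 0.19): Chac1, a glutathione-degrading enzyme (1.91, adjusted p = 0.0138), and Psat1, an enzyme of serine synthesis (0.60, 0.0446). Chac1 measured 1.62, 1.84 and 2.00 CPM in AOS0, 3.05 to 5.59 in AOS10 and 4.14, 6.97 and 9.40 in B+A0. The stress transcription factor Ddit3, known as CHOP, did not pass and pointed the other way, at 16.1, 15.02 and 16.9 CPM in AOS0 and 14.0, 12.2 and 12.9 CPM in B+A0, without overlap (log2 fold change -0.30, adjusted p = 0.110). Atf4 had 0.15 (adjusted p = 0.434), the phosphatase subunit Ppp1r15a 0.19 (0.658) and the pseudokinase Trib3 -0.30 (0.593).

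Levels of other gene groups also differed between B+A0 and AOS0. The heat shock list held cytosolic genes and the mitochondrial Hspd1 and Hspe1, neither of them called. Of its 14 tested genes, which answer to another transcription factor, 10 rose in B+A0 (median log2 fold change 0.91). That count was 2 when replicate 1 or 3 of AOS0 or replicate 3 of B+A0 was left out, and 4 without replicate 2 of B+A0. Their summed level was 5847 to 6774 CPM in AOS0, 6575 to 7326 in AOS10, 9225 to 12726 in B+A0 and 9610 to 14046 in B+A10. Hspa8 (0.97, adjusted p = 0.00399, edgeR) and Hsph1 (2.01, adjusted p = 0.00517) had the smallest p. Of 14 T and natural killer cell markers 9 fell, Itgae (-1.97, adjusted p = 0.0165) and Cd4 (-2.86, 0.0196) with the smallest p. None of the list passed when replicate 1 or 3 of AOS0 or replicate 3 of B+A0 was left out, and 1 did without replicate 2 of B+A0. Their sum was 201 to 339 CPM in AOS0, 193 to 253 in AOS10, 48.7 to 127 in B+A0 and 125 to 340 in B+A10. Of 4 macrophage and dendritic cell markers tested 1 fell, Itgax (-2.26, adjusted p = 0.00794), and all 4 were below 0 (median -1.20), with sums of 7.41 to 12.1 CPM in AOS0 and 2.86 to 4.18 CPM in B+A0. None of 4 fibroblast markers tested was called and all 4 were below 0 (median -1.14), with sums of 4.66 to 7.397 CPM in AOS0 and 1.97 to 4.52 CPM in B+A0. In B+A10 against AOS10, the heat shock genes Hspa8 (log2 fold change 0.82), Hsph1 (1.97) and Hspa4l (1.27) were called too, and no other of that list. Itgae (-0.11), Cd4 (-1.07) and Itgax (-0.36) were not. The macrophage and dendritic cell sums overlapped, at 4.67 to 8.75 CPM in B+A10 and 6.14 to 7.15 CPM in AOS10. So did the fibroblast sums, at 1.96 to 4.67 and 4.15 to 6.82 CPM. The part of these groups in the ER genes' differences was not tested.

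Paneth cells are rich in ER, so their markers were set beside the members. None of 8 tested was called in B+A0 against AOS0, all 8 were above 0 (median log2 fold change 0.58), and their sum was 3932 to 5966 CPM in AOS0 and 7036 to 8671 CPM in B+A0, without overlap. Itln1 had the smallest p (0.58, adjusted p = 0.0595, edgeR). In B+A10 against AOS10 none was called and 7 of 8 were above 0 (median 0.34, beside 0.27 for the 36 ER genes). Their sums were 6239 to 7142 CPM in B+A10 and 3195 to 7225 CPM in AOS10, the highest being that of AOS10 replicate 1. Goblet cell markers (median -0.19) and enterocyte markers (median -0.30) had no call among 10 each. None of 5 tested plasma and B cell markers was called, and they differed in direction (median 0.015). Jchain, the joining chain of secreted antibodies, measured 4.47, 2.89 and 10.4 CPM in AOS0 and 2.26, 1.13 and 2.00 CPM in B+A0, without overlap (-1.71, adjusted p = 0.0677, edgeR), and Cd79b had 0.57 (0.419). The sum of this list, 129 to 169 CPM over all 12 libraries, was mostly Sdc1 (121 to 162 CPM), which epithelium also expresses. Pancreatic acinar markers, without Zg16 of the goblet list, had no call. Their sum was 29.3 to 53.3 CPM in AOS0 and 57.7 to 58.3 CPM in B+A0, without overlap. In AOS10 it was 31.5 to 73.8 CPM and in B+A10 50.6 to 63.0 CPM, with overlap. The cell cycle and immediate early lists had no call in B+A0 against AOS0. In B+A10 against AOS10 the immediate early gene Egr1 was called (log2 fold change 4.29, adjusted p = 0.0332, edgeR). The part of these cell types and lists in the ER genes' differences was not tested.

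**Figure D5:**
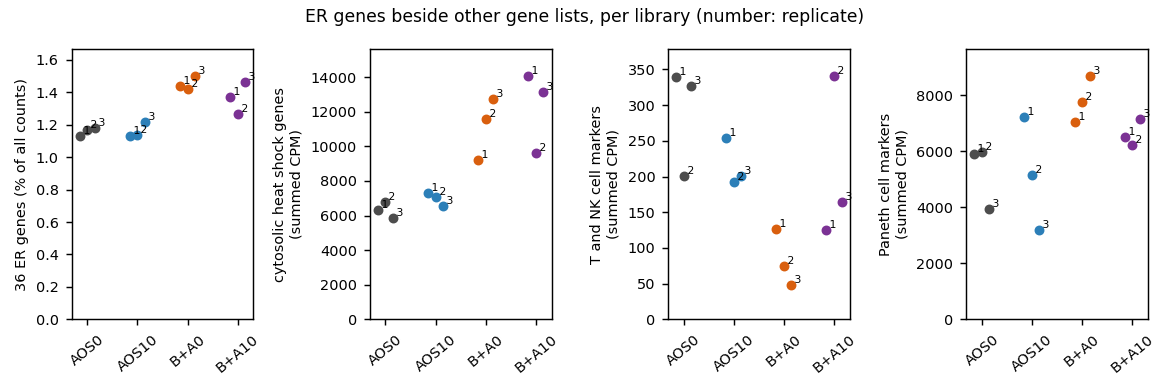
Each point is 1 library (number: replicate): percent of all counts taken by the 36 ER genes, and summed CPM of heat shock genes, T and NK cell markers and Paneth cell markers, all axes from 0. The heat shock panel, labelled cytosolic, also holds the mitochondrial Hspd1 and Hspe1. The ER share separates all 6 busulfan libraries (1.26% and above) from the others (1.22% and below), as do the heat shock genes, while T and NK markers reach 340 CPM in a B+A10 library.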

How the data were processed

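RNA-seq of small intestine was deposited as 1 table for 12 libraries, with build mm10 per the submitters' processing notes. Aligner, counting tool and whether strand was used are not given in the sources, so reads of overlapping or antisense genes may be mixed. The authors deposited expected counts under the heading of read counts, with no normalization; 8.90% to 9.33% were not whole (tolerance 1e-06) and were rounded. The deposited expression columns name no unit and were read as FPKM, since over 5071 genes with more than 500 counts their ratio to the counts tracked library size to within 0.149%. Counts were tested with edgeR 4.0.16 in R 4.3.3 (filterByExpr, TMM factors 0.969 to 1.05, 1 quasi-likelihood model over all 12 libraries, 6 contrasts, Benjamini-Hochberg at 0.05). The fit was also run on counts simulated from edgeR's own estimates, which cannot show misfit to these data. The outcome of that run is not given here. The SE divides the unshrunken log2 fold change by the square root of F. Alternatives used DESeq2 1.42.0, its size factors, 2 other filters, only the groups compared, a replicate block, limma 3.58.1 on log2(FPKM + 1), and each library left out. The members and lists were chosen with earlier results of these data known. All members are named; of each pathway list, up to 3 called genes per direction with the smallest p or, with no call, the smallest p; of marker lists, up to 2; and Ern2, Agr2, Atf4, Ddit3, Trib3 and Ppp1r15a always. Alg12 was named after its value was seen. Coordinates are RefSeq GRCm38; figures used matplotlib 3.10.9.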

Additional observations from a re-analysis of the deposited data

How the results depend on the processing

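For B+A0 against AOS0 the number of the 36 ER genes that rose depended on the setting. It was 13 to 19 with all libraries kept (DESeq2's Wald test 19, replicate block 13). In the fit of only the groups compared, which leaves out the libraries of the other groups, it was 15. With 1 library left out it was 6 to 21, and none fell under any setting. For B+A10 against AOS10 it was 3 by edgeR, 10 by DESeq2's Wald test, 5 with no filter, 1 with the replicate block, 0 with only the groups compared or with limma, and 0 to 6 with 1 library left out. For B+A10 against AOS0 it was 8, with 15 by DESeq2, 4 with only the groups compared and 4 to 12 with 1 library left out. The shares of all genes called under each alternative are not given beside these counts. A change in them may therefore be a change over the whole table and not one of the members. The median of the members for B+A10 against AOS0 was 0.22 by limma on log2(FPKM + 1), against 0.31. With 1 library left out, the median ranged from 0.21 to 0.33 for B+A10 against AOS10 and from -0.14 to -0.041 for B+A10 against B+A0. Os9 turned to 0.0065 with no filter and ranged from -0.066 to 0.043 with 1 library left out; Derl3 ranged from -0.16 to 0.41. Under the replicate block Xbp1, Sel1l and Ddost were not called in B+A0 against AOS0, and 8 of 158 other pathway genes rose and 0 fell (19 and 1 without it). Of the heat shock genes 6 rose under it (10 without it). The cause was not tested. Whether the replicate numbers in the labels pair libraries was not settled. Deviations of same-numbered libraries correlated between -0.162 and 0.173, but were not set beside those of differently numbered ones. The replicate block is given only as an alternative. Genes under about 1 CPM, such as Derl3, are limited by depth.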
